A study of Mus musculus with 6 samples.

Results

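The Hedgehog pathway was followed through 9 genes: the ligand gene Shh, the receptor Ptch1, the signal transducer Smo, the co-receptor Gas1, the ligand-binding inhibitor Hhip, the transcription factors Gli1, Gli2 and Gli3, and the target Foxf1. They were taken as every non-control probe whose RefSeq accession belongs to one of these genes, which gave 13 probes. All 13 passed the filter on dim probes, and all 9 genes are among the 21800 genes tested. Expression was measured on 6 single-colour Agilent mouse arrays of hearts taken at embryonic day 9.5. Wild-type embryos and embryos null for Arid3b, which encodes an ARID family DNA-binding protein, gave 3 samples each, every one pooled from 4 embryos of that genotype. The dissected piece held the heart tube with the pharyngeal mesoderm and endoderm below it, so every value is an average over muscle, mesoderm and gut epithelium. The labels give no strain, sex or details of the null allele.

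Hedgehog proteins are secreted signals that pattern the early embryo. Ptch1 holds Smo inactive until a Hedgehog protein binds it, after which Gli2 and Gli3 pass from repressor to activator forms and Gli1, Ptch1 and Hhip are switched on, so that Gli1 and Ptch1 levels are used as readouts of the signal. At the heart, Shh made by the pharyngeal endoderm acts on the neighbouring splanchnic mesoderm, which adds cells to the outflow tract and the atrial septum and in which Foxf1 and Foxf2 respond.

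Between 63.1% and 72.2% of the 43020 non-control spots were well above background on each array, and none was saturated. The tissue label was checked with 12 heart muscle genes, which were well above background on all 6 arrays. Of these 1 rose and 0 fell in the null pools, beside 6.64% and 3.81% of all genes tested. Arid3b read 2.91, 3.40 and 3.69 in the wild-type pools and 1.08, 0.52 and 0.45 in the null pools, in log2 units relative to each array's 75th percentile, the scale of every level below. The change of -2.65 (SE 0.26, limma adjusted p = 0.0019) goes with the labels, but where the probe lies relative to the deleted part is not given. Pools with the same number shared 1 of 3 slides, with wild type always in the same place, so place on the slide and genotype cannot be told apart. The null pools differed from wild type in genes outside the pathway. In these pools 9 of 10 hypoxia response genes and 8 of 8 platelet genes rose, against 6.64% of all genes. Null pool 3 carried trophoblast giant cell transcripts at a summed log2 level of 4.89. That level was 1.03 to 2.08 in wild type, 1.48 in null pool 1 and 1.80 in null pool 2. Only 4 of the 8 listed trophoblast genes were measured, of which 1 was called higher in the null pools and 0 lower.

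Null and wild-type hearts were compared to learn which of these genes differ in level where Arid3b is missing. For Shh, Gli1 and Smo all null pools read below all wild-type pools, and for Gas1 all read above. None of the 9 passed the test of limma at an adjusted p under 0.05, while 10.5% of all genes tested did. At an unadjusted p under 0.05 there were 3 of 9 (Shh, Gas1 and Gli1) against 26.9% of all genes. Among the 9, the 2 genotypes were fully separated for 4, against 32.9% of all genes, and 3 of these were lower in the null pools, against 14.9% of all genes. The median change over the 9 was -0.06, beside 0.03 over all genes; these shares are described only and were not tested as a list.

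**Figure D1:**
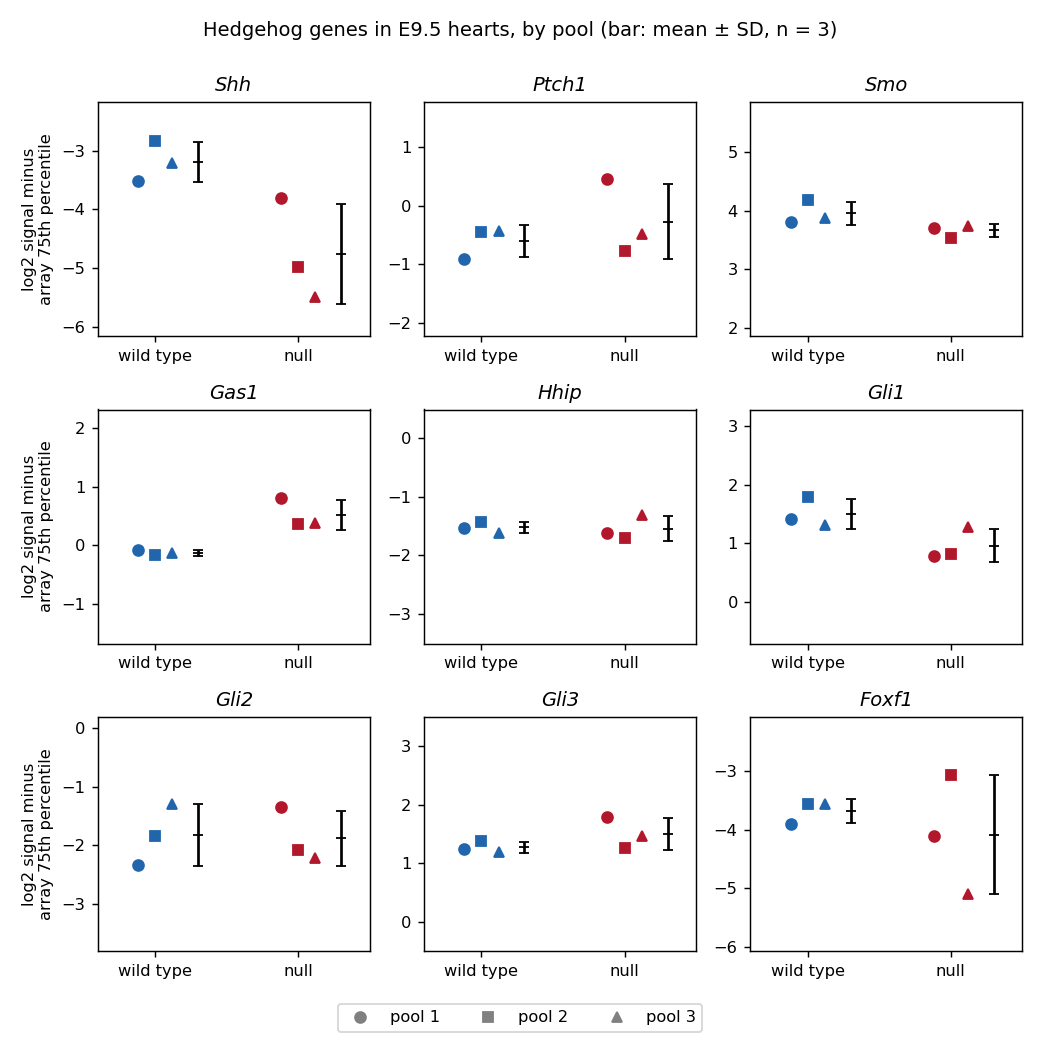
Levels of the 9 Hedgehog genes in each pool, in log2 signal minus the array's 75th percentile, with circles, squares and triangles for pools 1, 2 and 3 and the bar giving mean ± SD (n = 3). Every panel spans the same log2 range, levels of different genes are not comparable, and Shh and Foxf1 have the widest spread among the null pools.

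Shh, the ligand gene, had the largest difference of the 9. Its level was -3.51, -2.83 and -3.21 in wild-type pools 1, 2 and 3, and -3.81, -4.98 and -5.49 in null pools 1, 2 and 3. All null pools lay below all wild-type pools, but null pool 1 lay only 0.30 below the wild-type pool on its slide, while null pools 2 and 3 lay 2.14 and 2.29 below theirs. The means were -3.18 ± 0.34 and -4.76 ± 0.86 (SD, n = 3 each), a 2.98-fold lower signal. The change was -1.58 (SE 0.42, 95% interval -2.55 to -0.60), with a limma adjusted p = 0.0545. Blocking on slide gave 0.0839.

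The Shh probe was spotted 10 times on every array, which gives the spread within an array. The SD over the spots was 0.05 to 0.08 in the wild-type pools, 0.10 in null pool 1, and 0.25 and 0.23 in null pools 2 and 3. In null pool 3 only 6 of the 10 spots were well above background, so its value is close to the lower limit of the measurement (-5.87 on that array). Without null pool 1 the change was -2.05 (limma adjusted p = 0.0095). Without null pool 3, the pool with the highest summed trophoblast level, it was -1.21 (adjusted p = 0.123). With normexp background correction, run here with an offset of 50, it shrank to -0.38 (adjusted p = 0.161).

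In bulk tissue, fewer Shh-expressing cells and less Shh RNA per cell cannot be told apart. Markers of the tissues that could hold Shh were set beside it. Of 18 pharyngeal and foregut endoderm markers, 2 rose and 1 fell, beside 6.64% and 3.81% of all genes. Sox17, a regulator of endoderm and of some endothelium, rose by 1.22 and the keratin Krt18 by 1.09. Nkx2-1, a thyroid and lung regulator, fell by 0.79. The call of Nkx2-1 ended on leaving out any 1 of the 6 pools, without the filter on dim probes, blocked on slide (limma adjusted p = 0.148) and with normexp (-0.24, adjusted p = 0.340). The median change of the 18 was -0.02, while their summed log2 level, in which bright genes such as Krt18 weigh most, was 5.52 to 5.63 in wild-type and 6.40 to 6.61 in null pools. Foxa2, a transcription factor of endoderm, notochord and floor plate that acts upstream of Shh, read -0.46, -0.23 and -0.88 in wild-type and -0.98, -1.31 and -0.91 in null pools. These do not overlap, although null pool 3 lies only 0.03 below the wild-type pool of its slide, and the change of -0.54 (SE 0.22) had a limma adjusted p = 0.160. Isl1, of endoderm and cardiac progenitors, changed by -0.36 (adjusted p = 0.351). The part of these tissues in the Shh difference was not tested.

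Other sources gave unlike values. Of 6 measured floor plate and ventral neural tube markers, 1 fell, beside 3.81% of all genes. This was Nkx6-1, a regulator of ventral neural progenitors and of pancreas. It went from -1.17, -0.33 and -0.52 to -3.87, -3.39 and -3.44 (change -2.90, SE 0.26, limma adjusted p = 0.0014). Nkx6-1 is not on the list of 25 Hedgehog targets used below. Whether its level follows the source tissue or the Hedgehog signal was not tested. The summed level of the floor plate and ventral neural tube list, which includes Shh itself, was 1.30 to 1.70 in wild-type and 0.84 to 1.13 in null pools. In the dorsal neural tube, which is no source of Shh, 1 of 5 measured markers fell, also beside 3.81% of all genes. This was Olig3, a factor of dorsal progenitors, which was in no null pool well above background. It was at least 2.11-fold lower there (limma adjusted p = 0.0018). Olig3 entered the test only through the wild-type pools, where it is high, so that p-value rests on null values at background. In the notochord list 2 of 8 measured members rose and 0 fell, beside 6.64% and 3.81% of all genes. At an unadjusted limma p under 0.05 the list was split, with 3 members higher and 3 lower in the null pools. The 2 that were called were Krt19, a keratin of many epithelia, which rose by 3.03 (SE 0.19), and T, the defining notochord factor. T was well above background on 3 null arrays but only 1 wild-type array, so it entered the test through the group where it is high, and its fitted change of 2.57 (limma adjusted p = 0.0469) is set against values mostly at background. The median change of the list, which also holds Shh, was 0.11, and its summed level, in which bright genes such as Krt19 weigh most, was 2.73 to 3.08 in wild-type and 5.35 to 5.70 in null pools. Noto was not well above background on any array. The call of T ended with normexp (0.71), quantile normalization, median scaling or no filter on dim probes, and on leaving out any pool except wild-type pool 2.

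**Figure D2:**
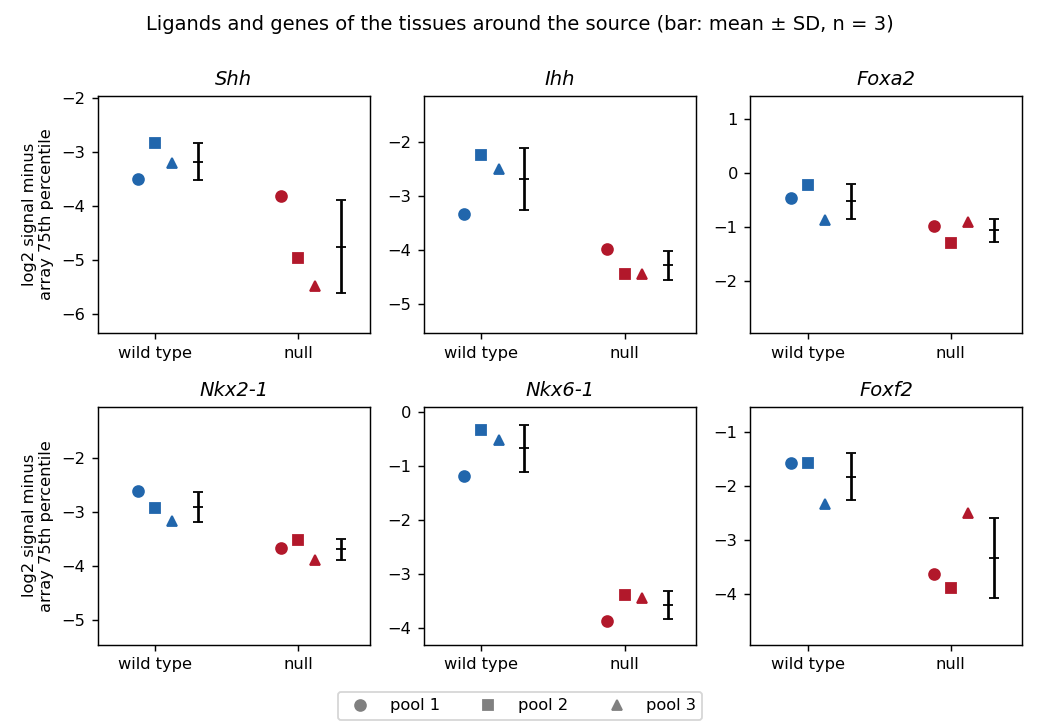
Levels of Shh, of the related ligand gene Ihh and of 4 genes of tissues near the source, in each pool (log2 signal minus the array's 75th percentile, circles, squares and triangles for pools 1, 2 and 3, bar: mean ± SD, n = 3). Shh and Ihh are lower in all null pools, Nkx6-1 is lower by 2.90 with no overlap, and Foxf2 in null pool 3 lies near the wild-type pools.

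Among the receptors, Ptch1 did not go with Shh. It read -0.91, -0.45 and -0.43 in wild-type and 0.46, -0.78 and -0.48 in null pools. Null pool 1 stood 1.37 above the wild-type pool of its slide, and the other null pools lay within the wild-type range. The change of 0.33 (SE 0.33, 95% interval -0.44 to 1.09) had a limma adjusted p = 0.571, and without null pool 1 it was -0.04.

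Gas1, a membrane-anchored protein that helps cells bind Hedgehog proteins, was the one gene of the 9 with higher levels in all null pools. Of its 3 probes the brightest gave -0.08, -0.17 and -0.13 in wild-type pools and 0.81, 0.37 and 0.38 in null pools, again highest in null pool 1. The change was 0.65 (SE 0.18, 95% interval 0.24 to 1.06), a 1.57-fold higher signal, with a limma adjusted p = 0.059. Blocking on slide gave 0.222. The other probes changed by 0.44 (SE 0.26) and 0.76 (SE 0.28), but both overlapped between the groups and were highest in null pool 3, so the probes share a direction and not the order of the pools.

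Smo, the transducer that Ptch1 restrains, was measured by a bright probe at 3.82, 4.18 and 3.87 in wild-type and 3.71, 3.54 and 3.74 in null pools. The change of -0.29 (SE 0.17, 95% interval -0.69 to 0.10) had a limma adjusted p = 0.313. Its dimmer probe changed by -0.52 (SE 0.22) with overlapping groups. Hhip, a membrane protein that captures Hedgehog ligands and is itself a target, read -1.54, -1.43 and -1.61 against -1.62, -1.71 and -1.31 on its brighter probe. That is a change of -0.02 (SE 0.17, 95% interval -0.42 to 0.38). The second Hhip probe was well above background on 2 wild-type arrays and 1 null array and changed by -0.80 (SE 0.41), with overlapping groups.

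**Figure D3:**
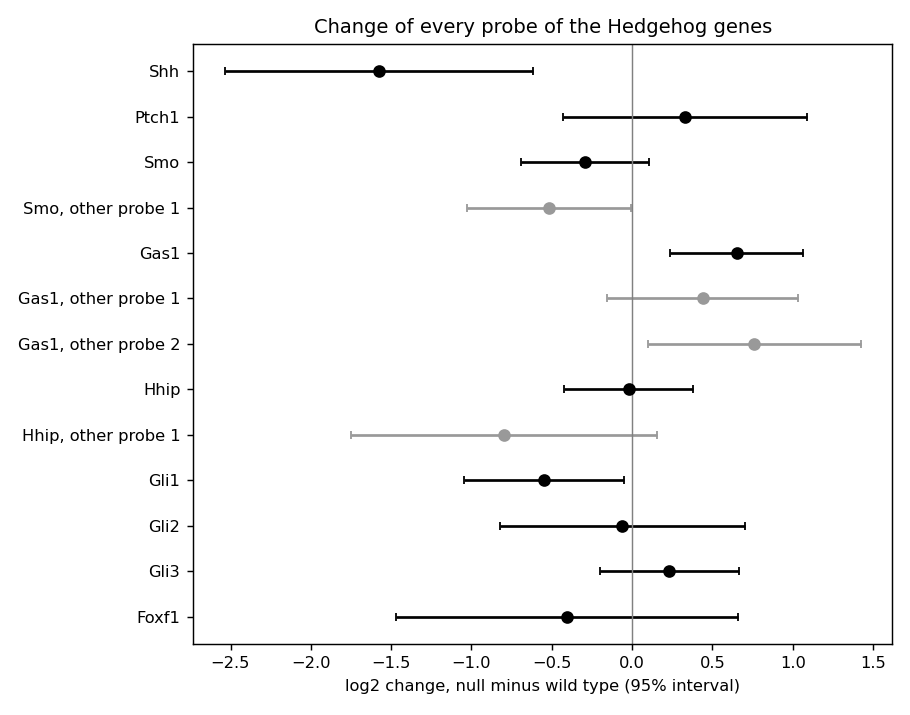
Change of each of the 13 probes, null minus wild type, with 95% intervals from the fit over all kept probes (black: the brightest probe of a gene, grey: its other probes). The intervals of Shh, Gli1, the dimmer Smo probe and 2 Gas1 probes leave out 0, and both Smo probes and all Gas1 probes point the same way within their gene.

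Of the Gli factors, Gli1, which is made only when the signal is on, read 1.41, 1.80 and 1.31 in wild-type pools and 0.78, 0.81 and 1.28 in null pools. All null pools lay below all wild-type pools, but null pool 3 only by 0.02 below the wild-type pool of its slide, against 0.64 and 0.98 on slides 1 and 2. The change was -0.55 (SE 0.21, 95% interval -1.05 to -0.05), a 1.46-fold lower signal, with a limma adjusted p = 0.151. Blocking on slide gave 0.364. The order of the null pools differed from that of Shh: null pool 3 had the lowest Shh and the highest Gli1 of the null pools.

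Gli2, the main activator, read -2.33, -1.84 and -1.29 in wild-type and -1.35, -2.07 and -2.22 in null pools, a change of -0.06 (SE 0.33, 95% interval -0.83 to 0.71). Gli3, the main repressor, read 1.24, 1.38 and 1.20 against 1.80, 1.26 and 1.46, a change of 0.23 (SE 0.18, 95% interval -0.20 to 0.66). Both overlapped between the groups, with limma adjusted p = 0.930 and 0.468.

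In null pool 1 Ptch1, Gli3 and Gas1 had their highest level of all 6 pools. The order of the other pools differed between them, and so did the pool with the highest level on the other Gas1 probes. For these 3 genes the 250 bases before one RefSeq start of each are shown, from RefSeq on GRCm38.p6. The Ptch1 stretch is chr13:63565736-63565985 (minus strand), the Gli3 stretch is chr13:15463473-15463722 (plus strand) and the Gas1 stretch is chr13:60177536-60177785 (minus strand). Each is printed 5′ to 3′ along the gene.
Ptch1: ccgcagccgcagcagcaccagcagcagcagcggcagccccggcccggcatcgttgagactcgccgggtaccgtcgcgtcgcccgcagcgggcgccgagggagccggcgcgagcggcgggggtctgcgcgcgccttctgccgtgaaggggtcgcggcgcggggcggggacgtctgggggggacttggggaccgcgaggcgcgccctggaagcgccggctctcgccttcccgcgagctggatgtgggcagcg
Gli3: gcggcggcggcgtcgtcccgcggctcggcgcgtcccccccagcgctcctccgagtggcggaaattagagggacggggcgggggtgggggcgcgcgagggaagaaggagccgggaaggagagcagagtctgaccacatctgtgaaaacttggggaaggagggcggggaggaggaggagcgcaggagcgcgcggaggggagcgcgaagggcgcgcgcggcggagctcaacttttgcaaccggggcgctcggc
Gas1: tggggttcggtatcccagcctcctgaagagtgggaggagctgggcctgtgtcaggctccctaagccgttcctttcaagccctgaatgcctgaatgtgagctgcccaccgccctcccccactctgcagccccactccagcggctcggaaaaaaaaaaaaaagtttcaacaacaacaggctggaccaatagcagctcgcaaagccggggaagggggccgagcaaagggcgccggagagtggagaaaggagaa
The Gli binding motif GACCACCCA was searched on both strands in 300-base windows, which reach 50 bases past the start. It was in 0 of the 6 windows found for these genes, and in 0.253% of all 32851 windows. A looser form, GNCCNCCCA, was in 2 of the 6, and in 6.72% of all windows. The match before Smo is shown in capitals in 30 bases, at chr6:29735436-29735465 (plus strand).
Smo: cctccgcggaTGGGGGGGCcgggcttggct
A match of letters is a description of the window only.

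Foxf1, a forkhead factor of splanchnic mesoderm that responds to Shh, had the most uneven null pools. It read -3.91, -3.57 and -3.57 in wild-type and -4.11, -3.06 and -5.10 in null pools, so that null pool 2 lay above every wild-type pool and null pool 3 far below. The change of -0.41 (SE 0.46, 95% interval -1.48 to 0.67) had a limma adjusted p = 0.624. Without null pool 3 it was 0.10.

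The rest of the pathway was taken from a list of 37 further components, of which 36 were measured. There 2 rose and 2 fell, beside 6.64% and 3.81% of all genes, and the list's median change was 0.01. Ihh, the Indian hedgehog ligand gene, fell 3.03-fold, from -3.33, -2.24 and -2.50 to -3.97, -4.44 and -4.45 (change -1.60, SE 0.30, limma adjusted p = 0.0195, blocked on slide 0.0498). Like Shh it was nearest to wild type in null pool 1, and with normexp its change was -0.58 (adjusted p = 0.0654). Scube1, of a family of secreted proteins that help release Hedgehog from cells, fell 2.18-fold, from 0.70, 0.65 and 0.24 to -0.69, -0.92 and -0.17 (change -1.12, SE 0.24, limma adjusted p = 0.0283, blocked on slide 0.0953).

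The 2 that rose act at reception and on the Gli proteins. Lrp2, the endocytic receptor megalin, which can bind Shh, rose 2.27-fold, from -0.49, -0.80 and -0.69 to 0.26, 0.68 and 0.62 (change 1.18, SE 0.18, limma adjusted p = 0.0094, blocked on slide 0.0579). Its call held on leaving out any 1 of the 6 pools. Dyrk2, a kinase that marks Gli2 for breakdown, rose by 0.72 (SE 0.16, limma adjusted p = 0.0351, blocked on slide 0.185). The calls of the other named members each ended on leaving out one or more pools: that of Ihh when pool 2 or 3 of either genotype was removed, that of Scube1 when pool 1 or 2 of either was, and that of Dyrk2 when any was except wild-type pool 3.

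Several components named whatever their values did not pass. The co-receptors Boc and Cdon changed by 0.31 (SE 0.28) and 0.47 (SE 0.20), the ligand gene Dhh by -0.10 (SE 0.18), the Gli inhibitor Sufu by 0.09 (SE 0.19) and Disp1, which releases the ligand, by -0.01 (SE 0.17). Hedgehog signals pass through the primary cilium. Of 32 genes of ciliary transport and the ciliary gate 0 were called by limma, against 10.5% of all genes. At an unadjusted p under 0.05 there were 8, against 26.9% of all genes, and the median change of the 32 was 0.11.

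**Figure D4:**
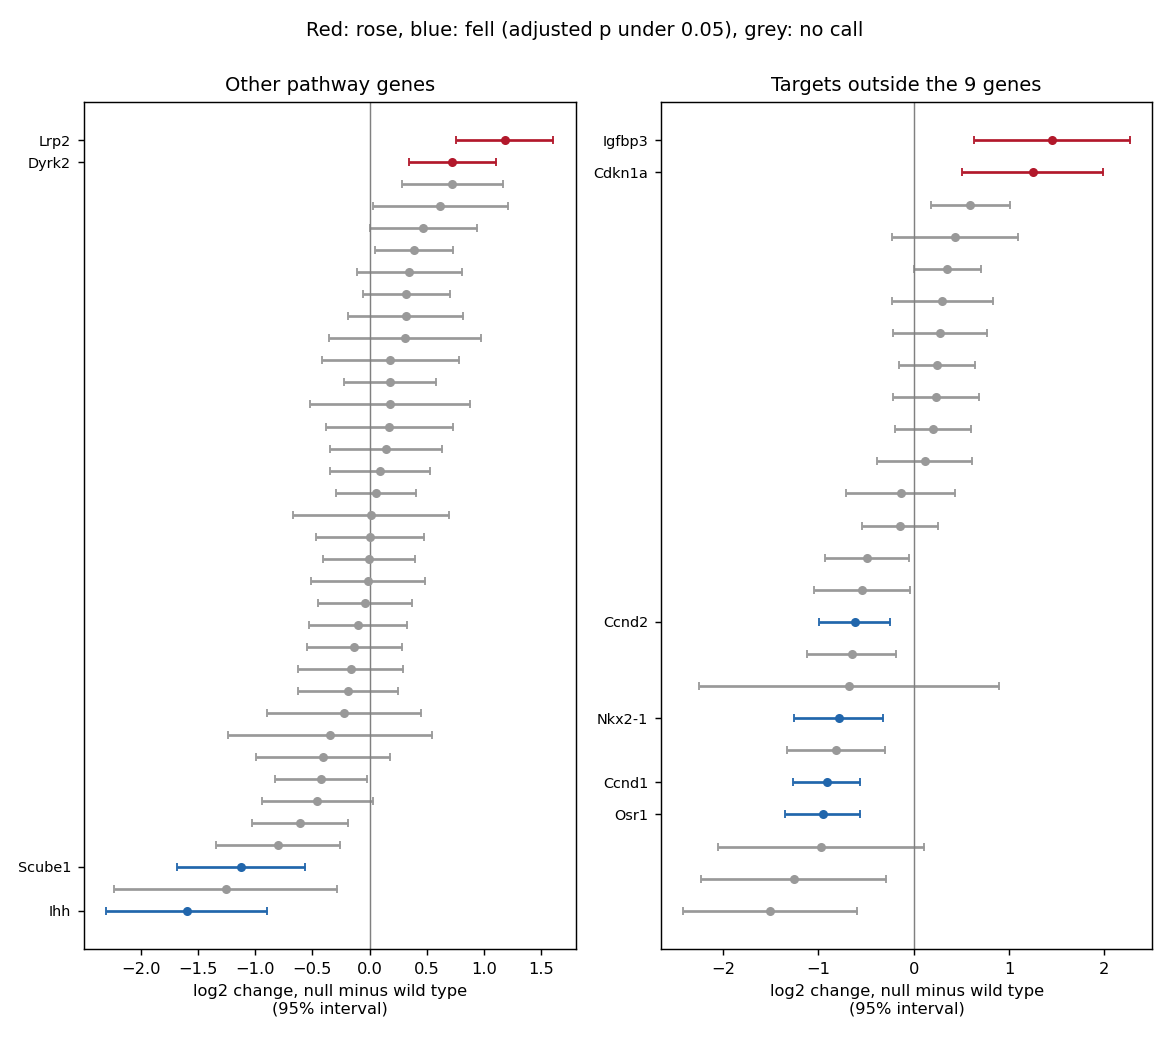
Log2 change, null minus wild type, with 95% intervals, for the 36 measured pathway components and the 25 targets outside the 9 genes, sorted by change, with names at the called genes only. Ihh and Scube1 fell and Lrp2 and Dyrk2 rose among components, and Ccnd1, Ccnd2, Osr1 and Nkx2-1 fell and Igfbp3 and Cdkn1a rose among targets.

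Of 25 genes known as Hedgehog targets in some tissue, 4 fell and 2 rose, against 3.81% and 6.64% of all genes, and the median change was -0.14. At an unadjusted limma p under 0.05 there were 14, against 26.9% of all genes. Of these 10 were lower in the null pools, against 11.8% of all genes, and 4 were higher. The genotypes were fully separated for 9 targets lower and 4 higher in the null pools, against 14.9% and 18% of all genes. These shares were not tested as a list. Osr1, a factor of splanchnic mesoderm that the atrial septum needs, fell from 0.40, 0.71 and 0.75 to -0.45, -0.31 and -0.24 (change -0.95, SE 0.17, limma adjusted p = 0.0153). The cyclins Ccnd1 and Ccnd2, targets of many growth signals, fell by 0.91 (SE 0.15) and 0.62 (SE 0.16), and Nkx2-1 by 0.79 (SE 0.20), a call that ended under the settings given above. Igfbp3 and Cdkn1a, which also respond to hypoxia and p53, rose by 1.45 (SE 0.35) and 1.25 (SE 0.31), and the other, dimmer Cdkn1a probe, well above background on 3 wild-type arrays and 1 null array, changed by 0.04. Blocked on slide, 0 of the 25 passed limma, against 3.4% of all genes. Leaving out wild-type pool 1, 2 or 3 in turn left 2, 1 and 2 calls, and leaving out null pool 1, 2 or 3 left 3, 0 and 5. With 1 pool left out, 3.82% to 8.04% of all genes were called.

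The forkhead gene Foxf2, which with Foxf1 responds to Shh in gut mesoderm, was chosen here after its values were seen. It read -1.59, -1.58 and -2.34 in wild-type and -3.63, -3.90 and -2.50 in null pools. The groups do not overlap, although null pool 3 lies 0.16 below the wild-type pool of its slide. The change of -1.51 (SE 0.39) had a limma adjusted p = 0.0514. With normexp it was -0.76 (adjusted p = 0.0634), and it passed in 6 of the 11 other settings and without null pool 3 (-1.93, adjusted p = 0.0162). Among the null pools, null pool 3 had the lowest Foxf1 and the highest Foxf2.

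The genes whose levels went most alike with 3 of the members over the 6 arrays were sought among 12325 genes, as a description with no test. For Gli1 these were Psmc1, Fam53a and Alpl (Pearson's r 0.996, 0.990 and 0.989), and for Ptch1 Med15 (0.991) beside a transcript with no symbol. For Shh they were Gas8 and Dynll1 (0.988 and 0.987) beside another transcript with no symbol. With 6 arrays in 2 groups that share their scaling, the points are not independent.

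**Figure D5:**
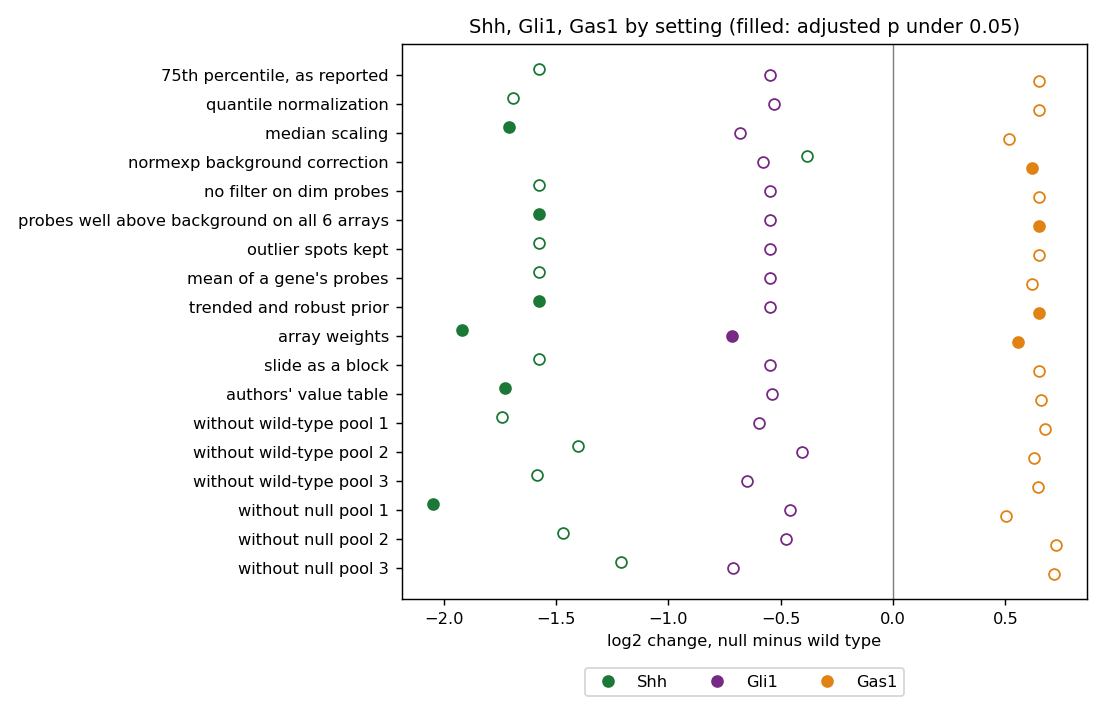
Log2 change of Shh, Gli1 and Gas1, null minus wild type, under the reported processing, 11 other settings and with each pool left out, filled where the limma adjusted p was under 0.05. The signs of all 3 genes are the same at every setting, Shh moves to -0.38 with normexp, and calls appear and vanish around the threshold.

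The sign of Shh, Gli1 and Gas1 was the same under all 11 other settings and with any 1 pool left out. Median scaling moved the median of all genes from 0.03 to -0.11, and changes under it shift by about as much. With it Shh passed (limma adjusted p = 0.0443), as it did when limma was run on the authors' deposited table of log2 values (-1.73, adjusted p = 0.0447).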

How the data were processed

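Per the file headers, the deposited intensity values are Cy3 signals with background subtracted and arrays not scaled to each other. The design is 026655 and the software Agilent Feature Extraction 10.7.3.1. The authors' deposited table holds log2 values, with nearly equal quartiles in every column, and no source used here says how they were made.

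Levels are the log2 processed signal less the 75th percentile of all non-control spots of that array, averaged per probe without outlier spots. Of 39429 probes, 26848 were well above background on 3 arrays or more and were kept. Symbols came from RefSeq accessions in a gene table of GRCm38.p6, while the headers name mm9. Each gene was read from its brightest kept probe. The comparison used limma 3.58.1 with R 4.3.3 (data.table version 1.17.8), two-sided, with Benjamini-Hochberg adjustment over 21800 genes, and SE is the moderated standard error. A gene was called at an adjusted p under 0.05, and all adjusted p-values are from limma. The fit was tested on simulated data. The number of arrays limits precision. The p-values set the difference between the group means against the moderated spread between the 3 pools of each genotype.

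The members and lists were chosen with earlier results of these data known. The genes named were all members, Ihh, Dhh, Boc, Cdon, Sufu, Disp1, Foxa2, Isl1, T and Nkx2-1, up to 6 called members of each pathway list and examples of the marker lists, with exceptions marked. Some items within this rule are not reported here. Other settings tried were quantile normalization, median scaling, normexp with an offset of 50 (on median signals, since the files used here hold no mean signal), no or a stricter filter on dim probes, outlier spots kept, the mean of probes, a trended prior, array weights, a slide block, the authors' table and leaving out each array.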

Additional observations from a re-analysis of the deposited data

How the results depend on the processing

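The number of the 9 Hedgehog genes called was 0 as reported, 1 with median scaling, normexp or the authors' table, 2 when every array had to be above background or a trended prior and 3 with array weights. Of all genes tested, 10.5% were called as reported and 22.3% with array weights. The settings giving 1 called 11.5%, 10.3% and 11.8% of all genes, and those giving 2 called 12.4% and 12.1%, in that order. Shh passed at -1.71 with median scaling, -1.58 with the stricter filter or a trended prior, -1.92 with array weights and -1.73 in the authors' table. Gas1 passed at 0.62 with normexp, 0.65 with the stricter filter or a trended prior and 0.56 with array weights, and Gli1 at -0.72 with array weights. Signs turned for Foxf1 with normexp (0.10) and array weights (0.076), Gli2 with normexp (0.027), Ptch1 with array weights (-0.055), Disp1 with normexp (0.020) and Sufu with quantile normalization (-0.030), median scaling (-0.044), array weights (-0.050) and the authors' table (-0.042), all values near 0. Over all genes 2279 were called as reported. Without the dim-probe filter it was 1037 (3.19% of genes tested), under array weights 4861 (22.3%) and blocked on slide 742 (3.4%). Those other settings gave, in that order, 2, 9 and 1 of the other pathway genes and 2, 12 and 0 of the targets. Array weights gave 5 of the 32 cilium genes. Without the filter dim genes are added to the test, and the block takes up degrees of freedom. The causes of the differing counts were not tested.

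With 1 array left out the counts were 833 to 1753 over all genes (3.82% to 8.04%), 0 to 1 for the members, 1 to 3 for other pathway genes and 0 to 5 for targets. The ranges were -2.05 to -1.21 for Shh, -0.036 to 0.58 for Ptch1, -0.33 to 0.21 for Gli2, -0.14 to 0.063 for Hhip, -0.92 to 0.10 for Foxf1, -0.11 to 0.050 for Disp1 and -0.054 to 0.17 for Sufu. The replicate numbers were checked as pairs: deviations from the group means of pools with the same number correlated at -0.41, -0.09 and -0.41 across genes. Differences between whole arrays can drive such a correlation, so it cannot tell what the pools share beyond the slide named in the headers. The replicate block left 0 of the 9 called, the same number as the reported fit. Shh, Ihh, Foxf1, Foxf2, Nkx2-1 and T are dim genes whose changes were smaller in size with normexp than as reported. That setting changed the background correction, added an offset to the signals and used median signals. Which of these steps made the changes smaller was not tested.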
